A study of Mus musculus with 4 samples.

Results

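The transcripts of 10 genes of the Notch pathway were followed through the embryonic gut stroma: the ligands *Dll1*, *Dll3* and *Jag1*, the receptors *Notch1*, *Notch2* and *Notch3*, and the targets *Hes1*, *Hey1*, *Hey2* and *Heyl*. They were chosen by name, not by their values, and all 10 were among the 28692 genes listed in the deposited count tables. Single-cell RNA sequencing had been performed on sorted stromal cells of untreated mouse embryos at E12.5, in 2 libraries of the small intestine (SI) and 2 of the large intestine including the cecum (LI). The embryos were of the EYFP strain on C57BL/6, in which yellow fluorescent protein (YFP) is carried by all tissues, and cells of several embryos were pooled. The labels do not say which libraries, if any, share an experiment. Cells had been sorted as live, YFP+ and Itgb1+, and as CD45-, Ter119-, CD31- and EpCAM-, a gate against leukocytes, erythroid cells, endothelium and epithelium that holds for both regions. A 3′ or a 5′ kit was used, and the sources used here do not tell which library had which, so that kit and library cannot be told apart.

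Notch is a receptor that is read by direct contact between neighboring cells. A ligand of the Delta or Jagged family on one cell binds the receptor on the next, the receptor is cut, and its intracellular part enters the nucleus and, with Rbpj, turns on genes such as those of the Hes and Hey families, which are themselves repressors. In the developing enteric nervous system the pathway is known for keeping neural crest progenitors from becoming neurons, and in vessels and muscle layers for acting on smooth muscle and its precursors.

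The libraries held between 31630548 (LI replicate 1) and 62886525 (SI replicate 2) unique molecular identifiers (UMIs, counts of single captured transcripts), and between 4603 and 6247 cells were kept in each. The median depth of kept cells was 4220.5 UMIs in LI replicate 1 and between 8382 and 8829 in the other libraries, and any pair of libraries shared at most 11 barcodes of kept cells. Clustering without the genes of the Notch pathway gave 11 clusters, which were gathered into 4 cell groups. Cluster 1, led by *Myh11*, *Cnn1* and *Actg2*, was called smooth muscle cell (SMC)-like (5466 cells). Cluster 5, led by *Upk3b* and *Krt19*, was called mesothelial-like (1319 cells). Cluster 7, led by *Foxd3* and *Sox10* (955 cells), and cluster 8, led by *Cartpt* and *Stmn2* (291 cells), were neural-like. Clusters 0, 2, 3, 4 and 6 formed the other mesenchyme. Among these, cluster 2 was led by histone genes. Cluster 6 had mitotic genes such as *Ccnb2* and *Cdc20* among its leading genes, cluster 3 was headed by *Adamdec1*, and cluster 4 by *Anxa2*, *Tac2* and *Wnt4*. A pericyte marker, *Rgs5*, stood among the leading genes of cluster 3, and *Epcam* among those of cluster 6, so values are also given by cluster number. Clusters 9 and 10 were left out, as most of their cells came from a single library. Levels are given as CPM, the UMIs of a gene scaled to a fixed total of UMIs of the group in that library, which allow a gene to be compared between cell groups but not with another gene. Where 4 values stand in a row they belong to LI replicates 1 and 2, then to SI replicates 1 and 2.

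*Dll1* (ENSMUSG00000014773; mm10, chromosome 17, 15367354 to 15376872, minus strand), a Delta ligand, was at 1.72, 5.38, 11.8 and 14.03 CPM in the other mesenchyme and at 1.62, 4.72, 8.25 and 13.7 CPM in SMC-like cells. Neural-like cells held 10.6, 17.4, 25.4 and 24.6 CPM, above both groups in every library. In these 3 groups the SI libraries lay above the LI libraries, which was true of 13.7% of genes in the other mesenchyme, 12.1% in SMC-like cells and 24.4% in neural-like cells. Of all *Dll1* UMIs in kept cells, 42.4% came from cluster 3, and in each of the 4 libraries cluster 3 lay above clusters 0, 2, 4 and 6, by 6.18 to 16.6 times their pooled level. Its level there was 6.74 and 23.2 CPM in the LI libraries and 54.8 and 53.0 CPM in the SI libraries. In cluster 4 only 4 UMIs of *Dll1* were counted, against 734 in cluster 3. Mesothelial-like cells held a single *Dll1* UMI over the 4 libraries, against 971 in the other mesenchyme, a ratio of 84.0 with a 95% counting interval of 15.0 to 3320. After each cell was thinned to 2000 UMIs, which left out 13 of the mesothelial-like and 157 of the other mesenchymal cells as too shallow, a *Dll1* UMI was found in 1.47% to 12.47% of cluster 3 cells, and in 0 of 1306 mesothelial-like cells, which allows a share of up to 0.23% of cells with a captured UMI and sets no limit on cells that express the gene. Shares, intervals and floors of this kind cover counting error only. An exon of *Dll1* overlaps one of the antisense gene *A930024N18Rik*, and whether counting used strand is not given in the sources used here. That gene held 34 UMIs in all kept cells.

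*Dll3* (ENSMUSG00000003436; chromosome 7, 28293553 to 28302238, minus strand) encodes a divergent Delta protein that is held inside the cell and is known as a companion of neuronal differentiation. Of its UMIs 86.5% came from the neural-like cells, where its level was 33.8 and 32.3 CPM in the LI libraries and 35.4 and 39.3 CPM in the SI libraries. No other group exceeded 1.59 CPM in any library. Within the neural-like cells, cluster 8 held 81.9 to 118 CPM and cluster 7 held 13.5 to 22.4 CPM. After thinning, 11.25% to 23.2% of cluster 8 cells had a *Dll3* UMI. The share in mesothelial-like cells was 0.85% at most, and the shares of other mesenchyme and SMC-like cells lay at or below it. Background from free transcripts was not measured, so it cannot be told apart from low expression.

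*Jag1* (ENSMUSG00000027276; chromosome 2, 137081456 to 137116644, minus strand), a Jagged ligand, had the opposite distribution. It was at 7.30, 45.7, 33.4 and 58.9 CPM in SMC-like cells, and at 8.51, 25.1, 21.6 and 33.1 CPM in the other mesenchyme. LI replicate 1, the shallowest library, was the lowest in both groups, and the regions overlapped. In the neural-like cells it did not exceed 2.51 CPM in any library. Among the clusters of other mesenchyme, cluster 4 held the most in all 4 libraries, at 28.1, 66.9, 40.8 and 66.4 CPM. Among the clusters of other mesenchyme, cluster 4, where *Jag1* was at its highest, was thus nearly devoid of *Dll1*. Cluster 3, the highest for *Dll1*, was at 0.59 to 0.86 times the pooled level of the other 4 clusters for *Jag1*. The ligands were not apart in every group, as SMC-like cells held 40.9% of the *Jag1* UMIs and 22.3% of the *Dll1* UMIs.

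**Figure D1:**
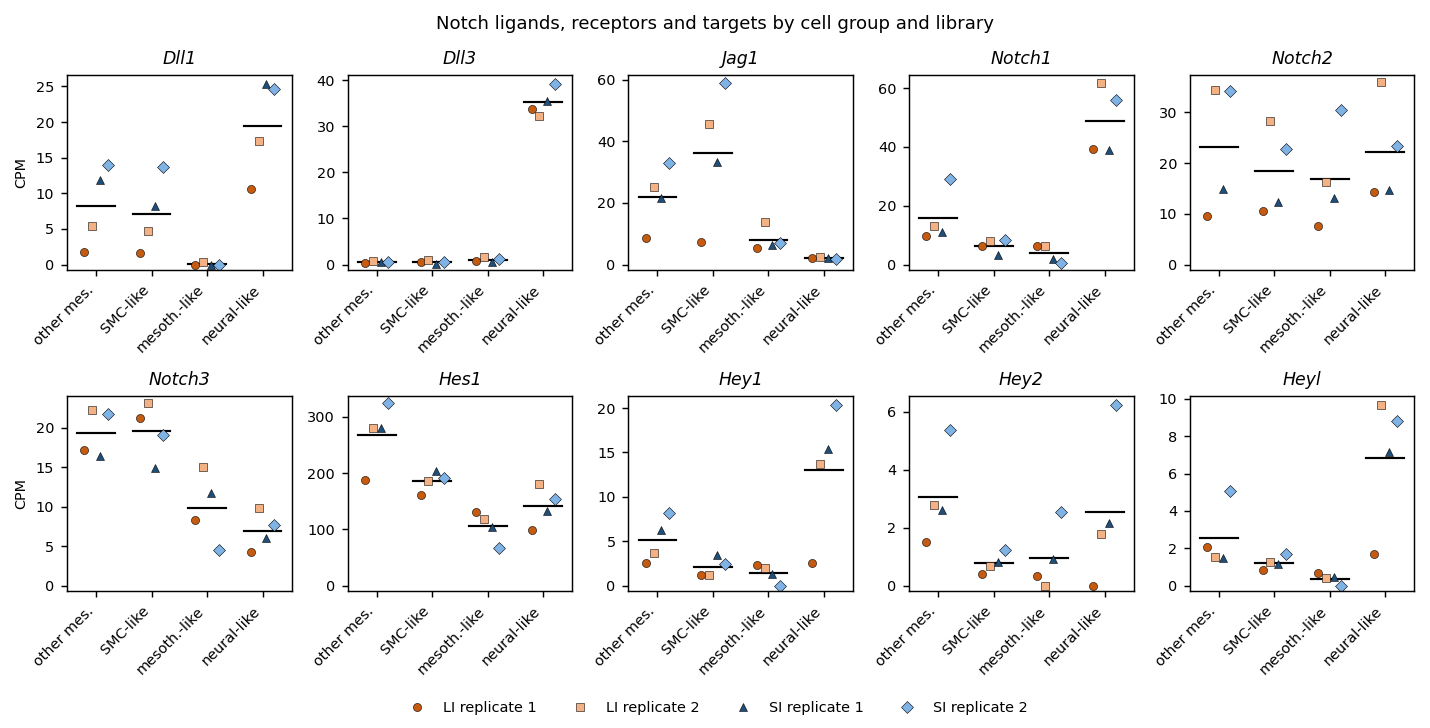
Level in CPM (vertical axis, linear, each gene on its own scale) of the 10 genes in the 4 cell groups, with 1 point for each of the 4 libraries and a bar at their mean. *Dll3* stands at 32.3 to 39.3 CPM in neural-like cells and at 1.59 CPM or less elsewhere, while *Jag1* does not exceed 2.51 CPM there.

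Of the receptors, *Notch1* (ENSMUSG00000026923; chromosome 2, 26457903 to 26516663, minus strand) varied most between the groups. Neural-like cells held 39.3, 61.6, 39.1 and 55.8 CPM. The other mesenchyme held 9.64, 13.2, 10.9 and 29.0 CPM, SMC-like cells 3.19 to 8.45 CPM and mesothelial-like cells 0.64 to 6.34 CPM, so that the neural-like range lay above all others. Cluster 7 (44.1 to 73.5 CPM) and cluster 4 (27.6 to 61.6 CPM) were the clusters with the most *Notch1*, and cluster 8 held 9.60 to 17.1 CPM.

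*Notch2* (ENSMUSG00000027878; chromosome 3, 98013527 to 98150361, plus strand) was the most even of the receptors. Its level in the other mesenchyme was 9.58, 34.5, 14.8 and 34.2 CPM, and the ranges of all 4 cell groups overlapped. In each of the 4 groups replicate 2 of a region lay above replicate 1 of the same region.

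*Notch3* (ENSMUSG00000038146; chromosome 17, 32120820 to 32166852, minus strand), known as the receptor of mural cells around vessels, was at 16.4 to 22.2 CPM in the other mesenchyme and 14.9 to 23.1 CPM in SMC-like cells. It was at 4.46 to 15.1 CPM in mesothelial-like cells and 4.22 to 9.87 CPM in neural-like cells, and only 2 UMIs of it were found in cluster 8. The other mesenchyme and SMC-like cells overlapped throughout. Its antisense neighbor *Gm17276*, which shares exon bases with it, held 14 UMIs in all kept cells.

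Of the targets, *Hes1* (ENSMUSG00000022528; chromosome 16, 30064384 to 30067796, plus strand), which encodes a repressor that many signals besides Notch can induce, was found in every group. It was at 187, 280, 281 and 325 CPM in the other mesenchyme, 161 to 204 CPM in SMC-like, 66.3 to 132 CPM in mesothelial-like and 98.4 to 181 CPM in neural-like cells. After thinning, 25.8% to 41.8% of cells of the other mesenchyme had a *Hes1* UMI. Cluster 8 stood apart with 0.96 to 15.6 CPM.

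The 3 Hey genes, which encode repressors of the same wider family, held far fewer captured UMIs, which does not rank their expression against that of *Hes1*. *Hey1* (ENSMUSG00000040289; chromosome 3, 8663359 to 8667256, minus strand) was at 2.58, 3.67, 6.21 and 8.22 CPM in the other mesenchyme and at 2.53, 13.6, 15.4 and 20.4 CPM in neural-like cells. *Hey2* (ENSMUSG00000019789; chromosome 10, 30832359 to 30842801, minus strand) reached 1.51 to 5.37 CPM in the other mesenchyme and 1.22 CPM at most in SMC-like cells. *Heyl* (ENSMUSG00000032744; chromosome 4, 123233556 to 123249875, plus strand) was at 1.47 to 5.05 CPM in the other mesenchyme and 1.69 to 9.69 CPM in neural-like cells. Thinned to 2000 UMIs, at most 4.14% of the cells of any group in any library had a UMI of a Hey gene, so that absence from a cell is not shown.

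Cluster 4 brought these genes together. It lay above clusters 0, 2, 3 and 6 in all 4 libraries for *Jag1*, *Notch1*, *Notch3*, *Hes1*, *Hey1*, *Hey2* and *Heyl*, 7 of the 10 genes, which was true of 7.14% of the 13989 genes tested in the other mesenchyme. *Hey2* was there at 8.33, 14.5, 8.29 and 17.5 CPM and *Heyl* at 14.9, 9.25, 7.98 and 14.8 CPM. Against the pooled level of the other 4 clusters, the ratio in a library was 4.38 to 15.1 for *Hey2*, 5.12 to 60.7 for *Heyl* and 1.35 to 2.16 for *Hes1*. These are descriptions without a test, as clusters are drawn from the same cells. The counterpart in cluster 3 was *Dll1* alone, where 2.47% of genes lay above the other clusters in every library. Since these genes are also known from vessel walls, markers of those cells were read in cluster 4. Of the endothelial markers *Cdh5*, *Cldn5* and *Tie1* held 1, 1 and 0 UMIs there, while *Egfl7* was at 23.3 CPM against 15.5 CPM in cluster 0, *Kdr* at 3.42 against 0.66 and *Esam* at 1.51 against 0.43, and *Pecam1* at 1.44 against 1.77 and *Emcn* at 0.21 against 0.38. The summed level of the list of 8 was 16.04 to 35.3 CPM against 13.3 to 25.6 CPM in cluster 0. The summed level of the 5 pericyte markers was 76.8 to 151 CPM in cluster 4, 10.3 to 49.0 CPM in cluster 0 and 16.9 to 235 CPM in cluster 3. Cluster 3 lay above cluster 4 in SI replicate 2 and below it in the other libraries. *Kcnj8* held 561 UMIs, *Abcc9* 363 and *Higd1b* 0 in cluster 4, while *Rgs5* was at 19.7 CPM there and at 90.6 CPM in cluster 3. The summed level of 10 immediate early and heat shock genes, a sign of handling, was 6172 to 12660 CPM in cluster 4 and 3701 to 7779 CPM in cluster 0. The 15 neural markers summed to 173, 147, 169 and 238 CPM in cluster 4 and to 29.7, 57.7, 68.3 and 80.8 CPM in cluster 0, and the 10 mesothelial markers to 144, 142, 106 and 67.1 CPM against 156, 64.9, 60.7 and 35.1 CPM. The 12 smooth muscle markers summed to 2823, 1007, 1076 and 1146 CPM in cluster 4 and to 931, 1152, 882 and 1552 CPM in cluster 0. In LI replicate 1 the SMC-like cells held 2001 CPM of this sum, and the ratios of *Hey2* and *Heyl* above were at their largest. The part of the endothelial, pericyte, handling, neural, mesothelial and smooth muscle genes in these levels was not tested.

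**Figure D2:**
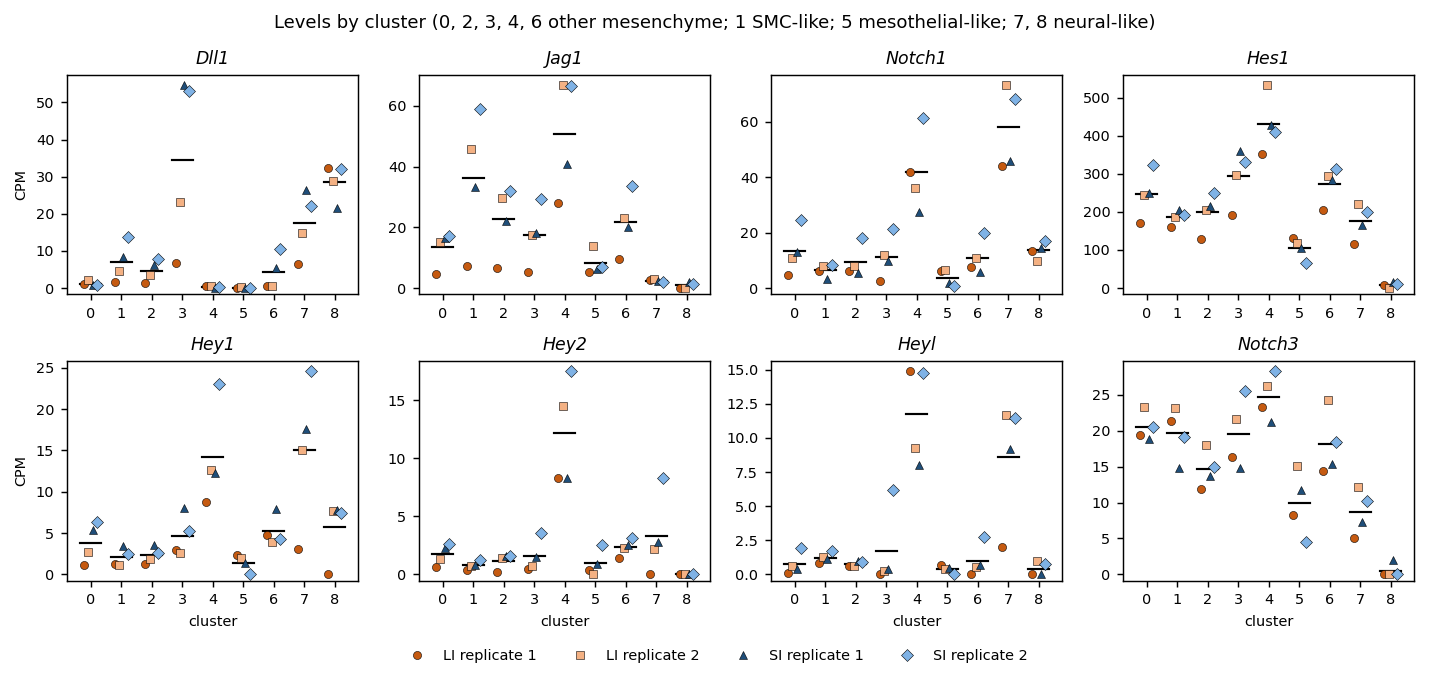
Level in CPM (vertical axis, linear) of 8 of the genes in clusters 0 to 8 (horizontal axis), 1 point per library with a bar at the mean of the 4. Cluster 3 holds the highest mean of *Dll1*, and cluster 4 that of *Jag1*, *Hes1*, *Hey2*, *Heyl* and *Notch3*.

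Where the data show genes that move together, their promoters were read from RefSeq (GRCm38.p6, the assembly of mm10), which gave the ligands, the receptors and *Hey2*, 7 of the 10 genes. *Hes1*, *Hey1* and *Heyl* had no entry. The 250 bases before each start were searched on both strands for the binding motif of Rbpj, TGGGAA, and its longer form GTGGGAA, which contains it. The motif TGGGAA occurs in 21.6% of the 32851 promoters of the table and GTGGGAA in 5.42%. Of these 7 genes, *Hey2*, the 1 target that could be searched, carried 1 match to both, and the ligands and receptors carried none in these windows. Another sequence, CAGCTG, found in 13.0% of promoters, was also searched. It matched in *Jag1*, *Dll3* and 1 of the *Dll1* windows, and not in the receptors or *Hey2*. The window of *Hey2* is shown 5′ to 3′ along the gene, with the match in capitals.
Hey2, chr10:30842784-30843033, minus strand: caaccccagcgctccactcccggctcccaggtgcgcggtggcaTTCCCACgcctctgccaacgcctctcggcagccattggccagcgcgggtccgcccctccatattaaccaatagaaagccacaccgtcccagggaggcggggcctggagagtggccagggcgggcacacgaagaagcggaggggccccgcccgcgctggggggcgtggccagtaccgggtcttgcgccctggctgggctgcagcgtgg
In the *Hey2* window the match reads TTCCCAC, the Rbpj motif on the opposite strand. A match of letters is not a measured binding site.

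To compare the cell groups, UMIs were summed per library and group and tested across the 16 sums with library as a block, by edgeR's quasi-likelihood test with Benjamini-Hochberg adjustment over 12487 genes. The clusters behind the groups were drawn from the same cells, though without these genes, so the p-values describe groups that were found in the data. In neural-like cells 5 of the 10 genes were higher than in the other mesenchyme and 3 lower, against 58.3% of all genes tested that were called, 28.9% higher and 29.4% lower. *Dll3* was higher by 5.98 ± 0.24 (log2 fold change ± SE, adjusted p = 4.92e-11), *Notch1* by 1.76 ± 0.26 (adjusted p = 3.91e-05), *Heyl* by 1.60 ± 0.35 (adjusted p = 0.00127), *Dll1* by 1.41 ± 0.25 (adjusted p = 0.000186) and *Hey1* by 1.38 ± 0.31 (adjusted p = 0.00149). *Dll3* met the filter on low counts only through the neural-like sums, where it is high, so its p-value adds nothing to the levels above. *Jag1* had a log2 fold change of -3.47 ± 0.34 (adjusted p = 6.24e-07), *Notch3* of -1.39 ± 0.19 (adjusted p = 2.43e-05) and *Hes1* of -0.88 ± 0.19 (adjusted p = 0.00124). *Notch2* (0.01 ± 0.19) and *Hey2* (-0.30 ± 0.33) did not pass the test. Of the handling genes, *Fos* was at 375 and 286 CPM in clusters 7 and 8, against 1185 to 2401 CPM in the clusters of other mesenchyme. *Jun* was at 1147 and 858 CPM against 905 to 1860 CPM. The part of handling in these calls was not tested.

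In mesothelial-like cells none of the 10 genes was called higher than in the other mesenchyme and 8 were called lower, against 40.6% of genes tested that were called and 20.2% that were called lower. The log2 fold change was -1.28 ± 0.20 for *Hes1* (adjusted p = 0.000187), -1.32 ± 0.30 for *Jag1* (adjusted p = 0.00293), -0.91 ± 0.21 for *Notch3* (adjusted p = 0.00323) and -1.77 ± 0.43 for *Notch1* (adjusted p = 0.00444). *Hey2* (-1.88 ± 0.52), *Heyl* (-2.35 ± 0.76), *Hey1* (-1.51 ± 0.53) and *Dll1*, whose single UMI gives the ratio above, were also lower. *Notch2* was at -0.45 ± 0.22 (adjusted p = 0.117), and *Dll3*, low in both groups, at 0.78 ± 0.55. *Notch2* passed with groups from detected markers (-0.76), without SI replicate 2 (-0.57) and with clusters 2 and 6 left out of the other mesenchyme (-0.60). The 3 Hey calls rested on few UMIs. *Hey1* missed the threshold without any 1 of LI replicate 2, SI replicate 1 and SI replicate 2 (log2 fold change -1.75, -1.28 and -0.97), *Hey2* without LI replicate 2 (-1.44) and *Heyl* without SI replicate 1 or 2 (-2.55 and -1.62). *Heyl* was also lost with groups from detected markers (-1.85, adjusted p = 0.231) and *Hey1* with thinned sums (-1.26, adjusted p = 0.158).

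SMC-like cells were closer to the other mesenchyme, with 3 of the 10 genes called, all lower, against 8.46% of genes tested that were called and 4.72% that were called lower. These were *Hey2* (-1.99 ± 0.34, adjusted p = 0.00193), *Notch1* (-1.27 ± 0.29, adjusted p = 0.0123) and *Hey1* (-1.28 ± 0.35, adjusted p = 0.0337). *Jag1* was at 0.68 ± 0.20 with an adjusted p of 0.053. None of the 3 passed when cell groups were taken from detected markers instead of clusters (log2 fold change -0.61, -0.30 and -0.65), a gate that placed 8449 cells of the other mesenchyme among the SMC. With sums thinned to equal totals *Hey1* was at -0.33 (adjusted p = 0.875) and *Notch1* at -0.88 (adjusted p = 0.294). *Notch1* was also lost without LI replicate 2 (-1.43) or SI replicate 1 (-1.12), and *Hey1* without LI replicate 2 (-1.23), SI replicate 1 (-1.52) or SI replicate 2 (-1.08).

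The neural-like cells were then divided by known markers, none of them a Notch gene. A cell was placed on the neuron side where more of 8 neuron markers than of 8 progenitor markers were detected (396 cells), on the progenitor side in the reverse case (775 cells), and 75 ties were left out. Within 1 marker of the cut were 168 cells, 69 of them in LI replicate 1, where 48 of the 92 neuron side cells belonged to cluster 7. *Dll3* was at 81.9, 110, 84.0 and 98.7 CPM on the neuron side, and at 8.68, 7.25, 11.9 and 15.1 CPM on the progenitor side. *Dll1* was at 23.4, 30.8, 39.3 and 47.7 CPM against 4.34, 12.501, 18.03 and 14.3 CPM. For both Delta genes every library was higher on its neuron side.

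*Notch1* was at 23.4, 18.8, 23.1 and 23.9 CPM on the neuron side and at 51.2, 74.8, 46.1 and 68.6 CPM on the progenitor side. *Hes1* was at 59.6, 10.5, 21.6 and 10.96 CPM against 130, 239, 182 and 216 CPM. Every library was lower on its neuron side for both, and LI replicate 1 had the smallest step in *Hes1*. *Notch2* was lower on the neuron side in 3 of 4 libraries, with 14.03 against 12.1 CPM in LI replicate 1.

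All 6 genes of the 10 that passed the filter on low counts were called between the sides, where 52.0% of 9220 genes were, 26.0% higher and 26.0% lower. *Dll3* was higher on the neuron side by 3.03 ± 0.20 on the log2 scale (adjusted p = 2.70e-06) and *Dll1* by 1.39 ± 0.19 (adjusted p = 0.000295). *Hes1* had a log2 fold change of -3.20 ± 0.41 (adjusted p = 0.000191), *Notch1* at -1.53 ± 0.17 (adjusted p = 9.33e-05), *Hey1* at -1.41 ± 0.25 (adjusted p = 0.00126) and *Notch2* at -1.46 ± 0.28 (adjusted p = 0.0019). These calls held in all 8 or 9 alternatives run for each gene. The other 4 genes did not pass the filter. *Notch3* held 6 UMIs on the neuron side and 126 on the progenitor side, a ratio of 8.79 towards the progenitor side with a 95% counting interval of 3.93 to 24.4, *Heyl* held 7 and 129 UMIs, and *Hey2* held none on the neuron side. *Jag1* did not exceed 3.47 CPM on either side.

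**Figure D3:**
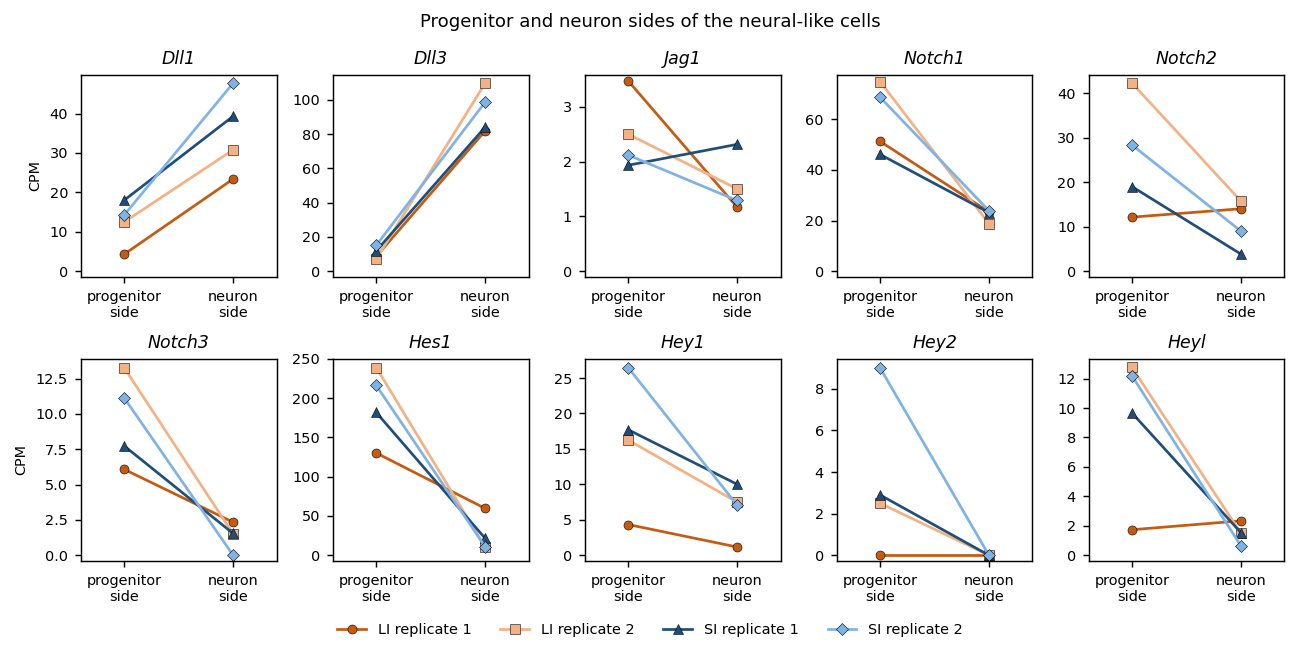
Level in CPM (vertical axis, linear) on the progenitor side and the neuron side of the neural-like cells, with 1 line per library. The lines of *Dll1* and *Dll3* rise towards the neuron side in all 4 libraries and those of *Notch1*, *Notch3*, *Hes1* and *Hey1* fall, while *Notch2* and *Heyl* do not fall in LI replicate 1.

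The libraries are labelled by region, and SI was set against LI in each cell group with 2 libraries of each region. An exact permutation test of 2 against 2 samples cannot give a 2-sided p below 0.333, so the test rests on the spread shared across genes in edgeR. The libraries are of pooled embryos, and the p-values measure the spread between these pools. In bulk sums of a group, fewer cells with a transcript and less RNA per cell cannot be told apart. In the other mesenchyme 2 of the 10 genes were called, *Dll1* and *Hey1*, both higher in SI, against 3.74% of the 13989 genes tested that were called and 1.12% that were called higher in SI. *Dll1* was higher in SI by 1.99 ± 0.41 on the log2 scale (adjusted p = 0.0367) and *Hey1* by 1.35 ± 0.27 (adjusted p = 0.0322). On simulated counts this test made false calls at more than its nominal rate, so adjusted p-values this near the threshold are weak. Other marker sums moved with the region in the same cells. The 15 neural markers summed to 45.4, 69.5, 99.4 and 135 CPM and the 5 pericyte markers to 19.5, 31.7, 44.3 and 109 CPM, both with the SI libraries above the LI libraries, and the 10 handling genes to 6577, 8152, 4215 and 6157 CPM. The mesothelial list (125, 60.4, 44.5 and 28.9 CPM) and the epithelial list (16.5, 17.8, 9.95 and 8.22 CPM) were lower in both SI libraries. So was the list of interstitial cells of Cajal (119, 165, 99.4 and 112 CPM). The smooth muscle list (1171, 1431, 1459 and 2313 CPM) and the endothelial list (18.2, 13.7, 21.9 and 21.3 CPM) were higher. In cluster 3 the neural markers summed to 34.2, 95.7, 171 and 152 CPM and the pericyte markers to 16.9, 49.5, 86.1 and 235 CPM, in the same order of regions as *Dll1*. The part of these sums in the calls was not tested. The remaining 8 genes had log2 fold changes from -0.04 to 1.03 and did not pass, among them *Notch1* (0.96 ± 0.39, adjusted p = 0.256), *Jag1* (0.86 ± 0.42, adjusted p = 0.338) and *Hes1* (0.54 ± 0.21, adjusted p = 0.224). Without LI replicate 2 *Jag1* was at 1.79 (adjusted p = 7.25e-06), *Notch1* at 1.16 (adjusted p = 0.0161), *Notch2* at 1.46 (adjusted p = 0.00114), *Hes1* at 0.80 (adjusted p = 0.00568) and *Hey2* at 1.51 (adjusted p = 0.0173). Without SI replicate 1 *Notch1* was at 1.49, *Jag1* at 1.12, *Hey2* at 1.44 and *Heyl* at 1.64, all of which passed.

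The clusters of the other mesenchyme were also tested alone, a choice made after the data were seen. *Dll1* passed in cluster 3 (1.88 ± 0.38, adjusted p = 0.0273) and cluster 6 (3.63 ± 0.76, adjusted p = 0.0363), but not in cluster 2 (1.504 ± 0.39, adjusted p = 0.0752) or in cluster 0, where its sign was opposite (-1.01 ± 0.52, adjusted p = 0.317). With the same number of cells from each cluster in every library the value was 1.69 (adjusted p = 0.0460), and with cells in G1 only it was 1.87 (adjusted p = 0.0237). It rose to 3.01 without LI replicate 2 and was 1.42 without LI replicate 1. With groups from detected markers it was 1.81 and did not pass (adjusted p = 0.177). *Hey1* passed in cluster 0 alone (1.72 ± 0.40, adjusted p = 0.0402) and not in clusters 2, 3, 4 and 6, with 1.07, 1.43, 0.81 and 0.58 (adjusted p from 0.116 to 0.734). It did not pass without SI replicate 2 (1.17, adjusted p = 0.0563), with equal cells of each cluster (1.07, adjusted p = 0.0522) or with sums thinned to equal totals (1.24, adjusted p = 0.0550).

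In SMC-like cells, mesothelial-like cells and neural-like cells, 0 of the 8, 5 and 10 genes tested were called by edgeR, where 1.97%, 1.10% and 0.31% of all genes tested were. At an unadjusted p under 0.05 the counts were 2, 1 and 2, and DESeq2 called 1, 0 and 0 of them. *Dll1* in SMC-like cells was at 1.84 ± 0.45 (adjusted p = 0.0979), close to its value in the other mesenchyme. It passed in 6 of 10 alternatives and was at 2.90 without LI replicate 2. The neural markers there summed to 28.8, 79.7, 88.2 and 155 CPM, and the mesothelial markers to 120, 37.8, 22.5 and 10.1 CPM. The smooth muscle markers, at 2001, 6106, 5395 and 11421 CPM, overlapped between regions. The part of these sums in the SMC-like values was not tested. *Jag1* there was at 2.81 without LI replicate 2 (adjusted p = 0.00467) and 1.28 without SI replicate 1 (adjusted p = 0.00651). *Notch1* in mesothelial-like cells, with 6.31 and 6.34 CPM in LI and 1.81 and 0.64 CPM in SI, regions that did not overlap as in 41.5% of genes, was at -2.17 ± 0.63 (adjusted p = 0.177) on 40 UMIs in all. Without LI replicate 2 *Notch2* passed in mesothelial-like cells (1.48, adjusted p = 0.00939), and in neural-like cells *Hey1* (2.70, adjusted p = 1.81e-06), *Heyl* (2.11, adjusted p = 0.0138), *Dll1* (1.13, adjusted p = 0.00984) and *Hey2* (adjusted p = 0.00718), which then had no UMI left in LI. Without LI replicate 1 *Notch2* passed in neural-like cells (-0.93, adjusted p = 0.0059). In neural-like cells the neuron side described above made up 41.8% and 25.4% of the cells of the LI libraries and 33.1% and 29.6% of those of the SI libraries, and its part in the region values was not tested. Over all kept cells none of the 10 genes was called, where 1.88% of genes were. 3 had an unadjusted p under 0.05 and DESeq2 called 2.

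**Figure D4:**
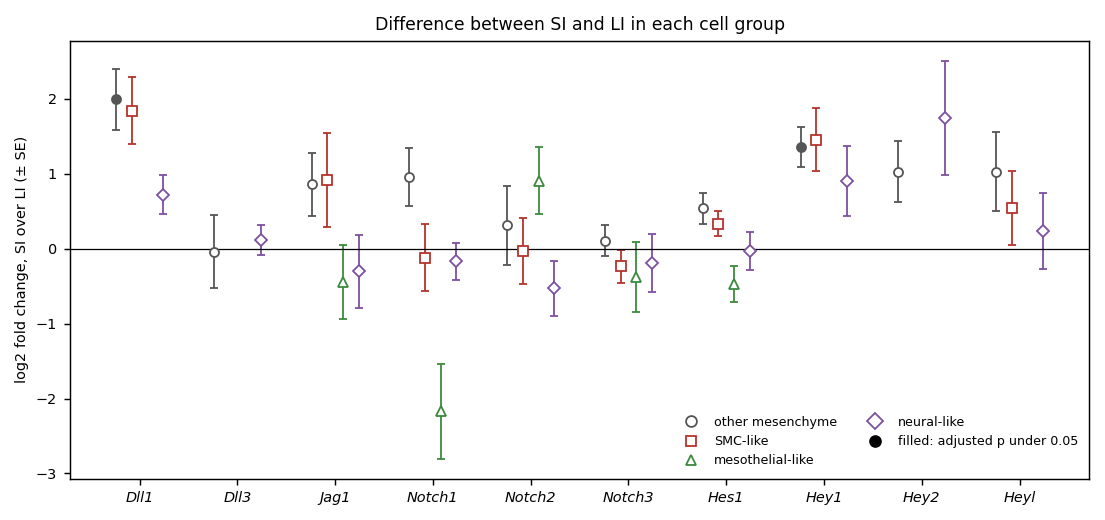
Log2 fold change of SI over LI (vertical axis, with its SE) for each gene in the 4 cell groups, where tested. Filled points, which are *Dll1* and *Hey1* in the other mesenchyme, passed edgeR's test at an adjusted p of 0.05.

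Whether the region difference itself differed between cell groups was tested as the interaction, over 13138 genes. *Notch1* (adjusted p = 0.0134) and *Notch2* (adjusted p = 0.0438) were called, 2 of the 10 genes against 12.1% of genes tested. Against the other mesenchyme, the SI over LI difference of neural-like cells was lower for *Notch1* (-1.02 ± 0.26, adjusted p = 0.016), *Notch2* (-0.74 ± 0.23, adjusted p = 0.0409) and *Dll1* (-1.16 ± 0.31, adjusted p = 0.0236), 3 of the 10 against 13.9% of genes that were called and 8.3% that were called lower. No gene of the 10 was called in the term of SMC-like cells, where 0.343% of genes were, or in that of mesothelial-like cells, where 2.16% were. At an unadjusted p under 0.05 there were 1 and 4. The 3 neural terms kept their direction in all 9 alternatives and passed in 4 of 9 each. *Notch1* was lost without LI replicate 1 (-1.07), LI replicate 2 (-0.92) or SI replicate 2 (-0.49), *Notch2* without LI replicate 1 (-0.57), LI replicate 2 (-1.14) or SI replicate 2 (-0.38), and *Dll1* without LI replicate 1 (-0.91) or SI replicate 2 (-0.98). All 3 were lost with DESeq2 (adjusted p = 0.187 for *Notch1*, 0.115 for *Notch2* and 0.0642 for *Dll1*). With thinned sums *Notch1* was at -0.29, *Notch2* at -0.71 and *Dll1* at -0.46, none of which passed, and with marker groups *Dll1* was at -0.95 and did not pass.

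A further 44 genes of the pathway, from ligands and modifiers to the cleavage enzymes and the nuclear complex, were read in the same tests. Between regions, 3 of the 38 tested in the other mesenchyme were called, all higher in SI, against 3.74% of all genes. *Dlk1*, a Delta-like protein without the domain that activates the receptor, was at 84.2 and 158 CPM in LI and 358 and 426 CPM in SI (1.86 ± 0.27 on the log2 scale, adjusted p = 0.00945). *Dtx4*, a Deltex ubiquitin ligase, was at 6.62 and 6.88 CPM in LI and 26.9 and 25.9 CPM in SI (2.13 ± 0.19, adjusted p = 0.00104). Both were also called higher in SI in SMC-like cells, 2 of the 36 tested there against 1.97% of all genes, and *Dlk1* alone was called of the 34 tested in mesothelial-like cells against 1.10%. *Bhlhe40*, a transcriptional repressor, was the other call in the other mesenchyme (1.197 ± 0.25, adjusted p = 0.0393). Over all kept cells *Dlk1* and *Dtx4* were called, 2 of 43 against 1.88%. In neural-like cells 0 of 38 were called by edgeR, 2 at an unadjusted p under 0.05, against 0.31% of all genes. *Dlk1* there was at 5.51 to 10.05 CPM, and its region difference was lower than that of the other mesenchyme (log2 difference -2.38 ± 0.31, adjusted p = 0.000154). *Dlk1*, *Dtx4* and *Hes6* were the 3 of 41 called in the interaction, against 12.1% of genes. The neural-like term called 5 of 41 against 13.9%, also *Maml3* and *Adam10*, and the mesothelial-like term called *Dtx4* (-2.16 ± 0.40), 1 of 41 against 2.16%. The SMC-like term called 0 of 41 against 0.343%.

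Between cell groups, 25 of 41 further genes were called in neural-like cells, 13 higher and 12 lower, near the 58.3% of all genes. *Mfng*, a glycosyltransferase that modifies the receptor, was at 32.1 to 58.6 CPM there and at 0.25 CPM or less in the other mesenchyme (log2 fold change 8.15 ± 0.23, adjusted p = 1.23e-12). At that level *Mfng* could not meet the filter on low counts through the other mesenchyme. Its p-value thus adds nothing to these levels, and the size of its fold rests on few UMIs there. *Hes6*, a Hes family member known to promote neurogenesis, was higher by 2.18 ± 0.11 (adjusted p = 8.74e-10) and *Dtx4* by 1.30 ± 0.36, and *Dlk1* (-5.04 ± 0.34) and *Dtx3* (-0.87 ± 0.13) were lower. In mesothelial-like cells 14 of 41 were called against 40.6% of all genes, 10 higher and 4 lower, led by the glycosyltransferase *Lfng* (4.44 ± 0.44, adjusted p = 2.71e-06) on 29 UMIs. At its average log2 CPM of -0.08, *Lfng* could not meet the filter on low counts through the other mesenchyme, so its p-value adds little. *Dtx2* (1.00 ± 0.14) and *Ncstn* (0.48 ± 0.16), a subunit of the protease that cuts the receptor, were also higher, and the coactivators *Maml3* (-0.84 ± 0.16) and *Snw1* (-0.29 ± 0.06) lower. In SMC-like cells 5 of 41 were called against 8.46% of all genes, 4 higher and 1 lower, led by *Neurl1a*, a ubiquitin ligase for Notch ligands, at 20.7 to 23.4 CPM against 8.31 to 10.9 CPM (1.21 ± 0.11, adjusted p = 1.09e-05). Between the sides of the neural-like cells, 14 of 30 were called against 52.0% of all genes, 10 higher on the neuron side and 4 lower. *Hes6* (1.66 ± 0.11), the coactivator *Maml3* (2.36 ± 0.19) and *Numbl* (2.26 ± 0.17), a Numb family member, were higher on the neuron side, and *Dtx4* (-2.07 ± 0.18) and the protease *Adam17* (-1.15 ± 0.22) were lower.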

How the data were processed

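The 4 deposited matrices hold raw UMI counts per gene and cell, made by the authors with Cell Ranger 3.1.0 on mm10 and later integrated in the study with Seurat. Groups follow the sample titles; some other labels speak of adult or colonic tissue. Cells with at least 1000 genes and under 10% mitochondrial UMIs were kept, and 183 to 348 cells per library with the highest Scrublet scores (scanpy 1.11.5) were removed as doublets at 0.8% per 1000 cells, because its automatic call marked at most 6. Of 2000 selected genes, 17 Notch genes were left out, and libraries were integrated in Seurat 5.3.0 and clustered on the other 1983 (30 components, resolution 0.3). A cluster took a class with 3 or more of its markers among 10 leading genes, a rule set after the clusters were seen. UMIs were summed per library and group and tested with edgeR 4.0.16 (quasi-likelihood, TMM, default filter, calls at adjusted p under 0.05), and DESeq2 1.42.0 was an alternative. On simulated data most changed genes were recovered, but the share of false calls exceeded the nominal one in every test simulated except the region test of mesothelial-like cells. Share intervals and floors use 95% and 3 UMIs. The GENCODE annotation of mm10 gave positions for 28416 of the 28692 listed gene IDs. All 10 genes are reported. Of the other 44, counts are given for each comparison, and by name the called gene with the smallest adjusted p and up to 2 others with the largest fold in each direction at an average log2 CPM over 4, except 1 gene that is not reported here. The members, lists and tests were chosen with earlier results of these data known.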

Additional observations from a re-analysis of the deposited data

Results flagged for a closer look

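The difference between SI and LI differed between cell groups for 2 of the 10 genes by the interaction test in edgeR, against 12.1% of all genes, and 3 were called in the neural-like term, against 13.9%. For *Notch1* the 3 interaction terms together had an adjusted p of 0.0134, and the neural-like term was -1.02 on the log2 scale. For *Notch2* the adjusted p was 0.0438 and the neural-like term -0.74. For *Dll1* the neural-like term was -1.16, while the 3 terms together had an adjusted p of 0.0664. All 3 neural-like terms were lost with DESeq2 and with thinned sums, and each passed in 4 of 9 alternatives.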

How the results depend on the processing

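Both the number of libraries and the depth limit these results: 2 libraries stand for each region, *Hey2* and *Heyl* held 460 and 490 UMIs in all kept cells, and LI replicate 1 was the shallowest library. All 8 calls of neural-like cells against other mesenchyme and all 6 between the sides held in every alternative run. Of the other mesenchyme's region calls among the 10 genes (2), 6 were made without a filter on low counts, 1 with thinned sums, marker groups, equal cells, or clusters 0, 3 or 6 alone, and 0 in clusters 2 or 4 alone. In SMC-like cells (0) there were 3 without a filter and 1 with DESeq2 or thinned sums, in mesothelial-like cells (0) 1 without a filter, and over all kept cells (0) 4 without a filter and 2 with DESeq2. SMC-like against other mesenchyme (3) gave 0 with thinned sums or marker groups, mesothelial-like (8) gave 5 with thinned sums, and the interaction (2) gave 5 without a filter, 1 with DESeq2 and 0 with thinned sums. With thinned sums *Hey2* and *Heyl* fell under the filter and were not tested between cell groups, where 8 of the 10 genes were tested, and 9 were tested for the interaction. Of the calls missing there, *Notch1* and *Hey1* in SMC-like and *Hey1* in mesothelial-like cells were tested and did not pass. The causes were not tested.

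Replicate numbers are shared between regions, but the labels do not say that a number marks an experiment, and deviations of same-numbered samples correlated at 0.305 in the other mesenchyme with only 2 pairs. With the replicate number as a block, the calls were 4 in the other mesenchyme, 3 in SMC-like cells (*Dll1*, adjusted p = 9.44e-05 in edgeR, *Jag1*, 0.00517, and *Hey1*, 0.0345), 1 in mesothelial-like cells (*Notch1*, 0.0213) and 4 over all kept cells, and 2 signs turned, *Notch2* in SMC-like cells (0.050) and *Hes1* in neural-like cells (0.0099).

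Leaving out 1 library in turn, the calls ranged from 1 to 7 in the other mesenchyme, 0 to 2 in SMC-like, 0 to 1 in mesothelial-like and 0 to 4 in neural-like cells, 1 to 6 over all kept cells, 1 to 5 for SMC-like and 6 to 8 for mesothelial-like against other mesenchyme, 6 to 8 between the sides and 0 to 4 for the interaction. A lone library was assumed to vary like the other region's. Signs turned in the region difference of the other mesenchyme for *Dll3* (-0.43 to 0.60), *Notch2* (-0.37 to 1.46), *Notch3* (-0.073 to 0.28) and *Heyl* (-0.091 to 1.64), in SMC-like cells for *Notch1* (-1.01 to 0.41) and *Notch2* (-0.55 to 0.88), in mesothelial-like cells for *Jag1* (-0.97 to 0.35) and *Notch3* (-1.30 to 0.11), and in neural-like cells for *Notch1* (-0.41 to 0.16), *Notch2* (-0.93 to 0.30), *Notch3* (-0.53 to 0.59), *Hes1* (-0.36 to 0.42) and *Heyl* (-0.29 to 2.11). Against other mesenchyme they turned in SMC-like cells for *Dll1* (-0.28 to 0.020), *Dll3* (-0.16 to 0.41) and *Notch3* (-0.058 to 0.082) and in neural-like cells for *Notch2* (-0.14 to 0.24). None of these had passed the test with all libraries.

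The other sign changes were, between regions, *Dll1* in cluster 0 alone (-1.01), *Notch2* in cluster 3 alone (-0.57), *Notch3* in cluster 6 alone (-0.13), *Hes1* in cluster 7 alone (0.074), *Notch1* in SMC-like cells with thinned sums (0.024), and with marker groups there *Notch1* (0.40), *Notch2* (0.16) and *Notch3* (0.0045). Against other mesenchyme, SMC-like cells turned for *Dll1* (0.58), *Notch3* (-0.027) and *Heyl* (0.77) with marker groups, *Dll3* (-0.0075) without a filter, and *Dll3* (-0.18) and *Notch3* (-0.11) with clusters 2 and 6 left out. Mesothelial-like cells turned for *Dll3* (-0.50) with thinned sums, and neural-like cells for *Notch2* without a filter (-0.039), with marker groups (-0.22) and with clusters 2 and 6 left out (-0.15). Single clusters and the omission of clusters 2 and 6 were chosen after seeing the data.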

Other observations

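Over the 16 sums of library and cell group, the genes outside the pathway with a mean of at least 20 CPM whose log2 levels went most closely with each of the 10 genes were read. Sums of 1 library share its depth and sums of 1 group share its cells, so these correlations are descriptions. *Dll3* went with the neuronal genes *Tubb3* (Pearson's r = 0.992) and *Elavl3* (0.991), and *Dll1* with *Ednrb* (0.947) and *Gfra1* (0.943), which encode receptors of enteric neural crest cells. *Jag1* went with *Gli3* (0.979), a transcription factor of the Hedgehog pathway, and *Traf5* (0.945). *Notch1* went with *Gpm6b* (0.935) and *Nrp1* (0.933), *Notch3* with *Etv6* (0.954) and *Bcor* (0.936), and *Notch2*, the most even of the genes, with *Rps25* (0.895) and *Snhg6* (0.885). *Hes1* went with *Ifngr1* (0.908) and *Fndc3c1* (0.890), *Hey1* with *Btbd1* (0.914) and *Sh3glb1* (0.896), *Hey2* with *Rev3l* (0.857) and *Sulf2* (0.840), and *Heyl* with *Peg12* (0.900) and *Btbd1* (0.890).

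*Dll4*, an activating Delta ligand, was found in neural-like cells on the neuron side (72 UMIs, 8.19 to 20.04 CPM in the 4 libraries) and with 2 UMIs on the progenitor side. *Hes5* and *Nrarp*, both known as Notch targets of neural progenitors, held 56 and 215 UMIs on the progenitor side and 14 and 15 on the neuron side. These 3 genes are described here after their values were seen. *Jag2* held 15 UMIs in the other mesenchyme.

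In the clusters left out of the cell groups, cluster 9 (179 cells, led by *Pf4* and *Afp*, 88.8% of them in LI replicate 2) held 47 UMIs of *Notch2*, 89.4 CPM, in that library. Cluster 10 (100 cells, led by *Foxd1*, 75.0% of them in SI replicate 2) held no UMI of *Dll1*, and *Hey1* was there at 25.4 CPM in SI replicate 2.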
